A study of Arabidopsis thaliana with 12 samples.

Results

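The 40 genes described here were strongly induced in wild type Arabidopsis after a day in the cold and had moved little after 3 h. In the mutant line cbfs-1 they reached at least 0.7 times the wild type level. They were chosen by measured values in the table of 24616 genes: a mean wild type value of at least 100 after 24 h of cold, a log2 rise of at least 2 from 0 h to 24 h, a log2 change between -0.5 and 0.5 from 0 h to 3 h, and a cbfs-1 mean at 24 h of at least 0.7 times the wild type mean. Means were taken over 2 libraries per group, on the scale log2(mean + 1). Of 14635 genes at 100 or more in wild type at 24 h, 304 were higher than at 0 h by a log2 of 2 or more, and 62 of these were flat at 3 h. The other 240 were already higher at 3 h in wild type and 2 were lower. Of the 62 late genes, 40 met the ratio of 0.7 and 22 fell below it. The rule sets no upper limit on the ratio, which ran up to 1.87. Within the limits at 3 h in wild type, the change was positive in 34 of the 40 genes and negative in 6. The share among all tested genes was not worked out, and both groups entered the rule, so no early rise is read from this. The timing of the 40 genes and their levels at 24 h are therefore a description of how they were selected and carry no test. The 3 h libraries of cbfs-1 took no part in the choice.

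Plants exposed to cold first switch on a small set of transcription factor genes within hours, among them CBF1, CBF2 and CBF3, whose proteins bind a short promoter element of many cold-regulated genes. A later wave of transcripts follows as metabolism, photosynthesis and growth adjust, and part of it does not need the CBF proteins. Gene products known from such later stages include enzymes that attach glutathione or sugar to reactive and foreign compounds, membrane exporters, alternative enzymes of the mitochondrial electron chain, and chloroplast proteins that bind chlorophyll under excess light.

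Seedlings of the wild type accession Col and of the line cbfs-1 were grown on plates at 22 °C under long days until they were 14 days old. Each genotype was harvested without cold (0 h) and at 3 h and 24 h of 4 °C, which gave 6 groups of 2 libraries and 12 RNA-seq libraries in all. The 0 h groups carry no cold treatment, and all groups share the age, the growth conditions and the whole-seedling tissue. The labels do not say whether the replicates came from separate plates or days, nor what the lesion in cbfs-1 is, and the p-values cover no more than the differences among these 12 libraries, some of which may be technical.

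The recovered totals were 16849042 to 22800552 reads per library, and values are normalized reads, that is, read counts divided by 1 size factor per library. A value of 2.46 to 3.28 corresponds to 3 reads, which was taken as the floor; it covers counting error only. All 10 leaf markers were measured, and their summed value was 1248729 to 1352769 in Col at 0 h and 969568 to 1092737 at 24 h. The sum of all 11 root markers was 3103 to 3211 in Col at 0 h and 16706 to 23584 at 24 h. In cbfs-1 it was 3139 to 3151 at 0 h and 7824 to 8817 at 24 h. Without OEP16, the sum of the other 10 was 2546 to 2750 in Col at 0 h and 2237 to 2281 at 24 h. In cbfs-1 it was 2480 to 2589 and 2244 to 2520. OEP16 was left out after its values were seen, because it went from 508 to 17886 in Col. The 9 seed and flower markers in the table summed to 15.2 to 108 in any library. The part of these marker differences in the results was not tested, and in whole seedlings fewer cells of a type and less RNA per cell cannot be told apart. CBF1 and CBF2 transcripts were present in cbfs-1 at 3 h, at 1540 and 2475 for CBF1 and at 7570 and 8377 for CBF2. CBF3 (DREB1A) stood at 1158 and 1095 in cbfs-1 and at 6133 and 7126 in Col at that time. At 24 h it was the higher in cbfs-1, at 893 and 799 against 404 and 180.3, and also at 0 h, at 175 and 138 against 15.3 and 7.59. The 40 genes are thus genes that kept their late level in the line labelled cbfs-1, and the name CBF-independent goes no further than that line.

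Their levels spanned a wide range. The median gene stood at a mean of 166 in Col at 0 h and 1122 at 24 h. The median fold between these means was 4.82, with a range of 4.02 to 34.1. In cbfs-1 the median fold from 0 h to 24 h was 5.18, with a range of 1.74 to 25.2. In all 40 genes both cbfs-1 libraries at 24 h lay above both cbfs-1 libraries at 0 h and at 3 h, as they did in 29.8% of all tested genes; the 24 h libraries entered the rule through the ratio, so nothing is read from this count. Genes were tested with limma, which fits a linear model to log2(value + 1) of each gene and shares the estimate of spread across genes, and calls were made at an adjusted p (Benjamini-Hochberg) under 0.05. Of 20666 genes tested, 50% were called in Col at 24 h against 0 h and 48.2% in cbfs-1; all 40 genes were among them in both, which follows largely from how they were chosen and is not read as a result. A log2 rise of at least 2 in cbfs-1 at 24 h was found in 1.66% of tested genes and in 34 of the 40. This too follows largely from the rise in Col and the ratio in the rule, and is not read as a result. The genes under a rise of 2 in cbfs-1 were TT5, UGT73B2, PMAT1, PES1, AT3G13150 and AT4G12490. Scaled to exon length, per kilobase, GER3 had the highest level at both 0 h and 24 h (3231 and 13953), and ELIP1 was second at both (976 and 9646). GSTU25 went from the sixth highest of the 40 at 0 h to the third at 24 h, and JMJD5 from the 36th to the 26th. The genes lie on all 5 chromosomes, with 6 to 10 on each, and GSTU24 and GSTU25 are the only pair next to each other among measured genes.

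**Figure D1:**
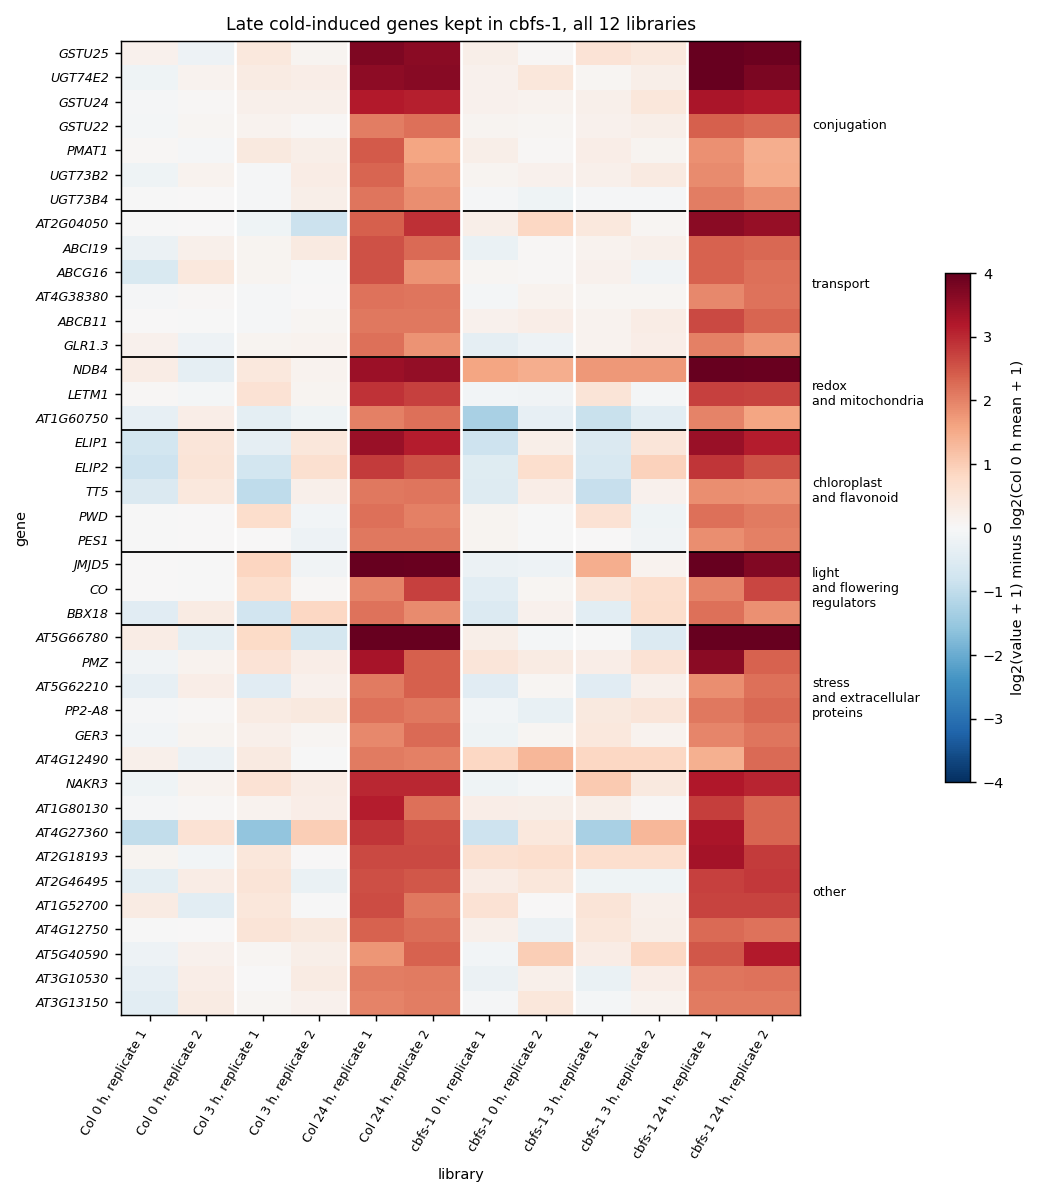
Log2(value + 1) in each of the 12 libraries minus log2(mean + 1) of wild type at 0 h, for the 40 genes grouped by role; red is higher and blue is lower, and the colour scale is clipped at -4 and 4. The 4 libraries at 24 h stand apart from the other 8 in most genes, which in wild type follows from the rule. In AT4G12490 replicate 1 of cbfs-1 at 24 h (985) is close to replicate 2 at 0 h (929). AT4G27360 shows the widest spread between replicates before 24 h.

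Conjugating enzymes were the largest group with a shared role. The 7 members were 3 tau glutathione transferase genes (GSTU25, GSTU24, GSTU22), whose enzymes join glutathione to electrophilic compounds, 3 glycosyltransferase genes (UGT74E2, UGT73B2, UGT73B4) and PMAT1, which encodes a malonyltransferase for phenolic glucosides. GSTU25, given like all genes below by its 2 replicates for 0 h, 3 h and 24 h in turn, stood at 638 and 494, then 753 and 607, then 7518 and 6888 in Col, and in cbfs-1 at 665 and 588, then 832 and 759, then 9752 and 8616. Both 24 h libraries of cbfs-1 lay above both of wild type, and the fold was 12.7 in Col and 14.7 in cbfs-1. Its neighbour GSTU24 stood at 649.8 and 697, then 777 and 776, then 6086 and 5776 in Col and at 754 and 741, then 782 and 916, then 6545 and 6032 in cbfs-1. At 24 h its libraries overlapped between the genotypes. GSTU22, which lies in another cluster of tau genes on the same chromosome, stood at 265 and 295, then 306 and 289, then 1171 and 1304 in Col and at 303 and 294, then 315 and 329, then 1472 and 1339 in cbfs-1. Its rise was thus the smallest of the 3, at 4.42-fold in Col.

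The upstream windows of the neighbours GSTU24 and GSTU25 are shown because each holds the as-1 element core TGACG, the sequence bound by TGA factors, which are known activators of glutathione transferase genes. The windows are the 250 bases before the annotated transcript start, on the plus strand of chromosome 1 in the RefSeq annotation of TAIR10.1, chr1:5869293-5869542 for GSTU24 and chr1:5871774-5872023 for GSTU25, and the capitals mark it.
GSTU24: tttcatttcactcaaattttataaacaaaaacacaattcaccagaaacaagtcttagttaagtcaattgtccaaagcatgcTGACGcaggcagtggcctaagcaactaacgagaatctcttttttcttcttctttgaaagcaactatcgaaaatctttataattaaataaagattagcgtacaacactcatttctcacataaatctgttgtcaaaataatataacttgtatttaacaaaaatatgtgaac
GSTU25: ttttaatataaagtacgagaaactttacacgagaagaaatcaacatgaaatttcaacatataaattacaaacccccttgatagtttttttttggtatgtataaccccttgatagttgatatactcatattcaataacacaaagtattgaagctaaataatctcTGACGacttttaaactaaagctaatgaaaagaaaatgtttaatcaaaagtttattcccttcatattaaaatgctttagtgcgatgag
Each window holds 1 match, and the bases around it differ between the neighbours. Over the 40 genes 9 windows (22.5%) held this core, against 18.6% of all 27443 promoter windows, so its share was near the background.

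UGT74E2, which encodes a glucosyltransferase acting on the auxin indole-3-butyric acid, stood at 139 and 174, then 197 and 189, then 1896 and 1961 in Col, and at 176 and 212, then 166 and 183, then 2955 and 2137 in cbfs-1. Both mutant libraries at 24 h were above both wild type ones. UGT73B2, whose enzyme glucosylates flavonols, stood at 557 and 689, then 607 and 770.3, then 3113 and 2064 in Col and at 674 and 697, then 716 and 791, then 2323 and 1753 in cbfs-1. PMAT1 stood at 331 and 308, then 420.0 and 378, then 1763 and 956, and at 373 and 327, then 383 and 348, then 1129.5 and 884. These 2 genes had the lowest ratios of cbfs-1 to wild type at 24 h among the 40, 0.787 and 0.740, with wild type replicates far apart and overlapping the mutant ones. UGT73B4 stood at 339.6 and 353, then 331 and 409, then 1527 and 1258, and at 338 and 309.5, then 332 and 337, then 1441 and 1271. Its counts are uncertain, since 19.0% of its 50-base stretches also occur in exons of other genes, most often of its neighbour UGT73B5, whose annotated exons overlap its own.

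**Figure D2:**
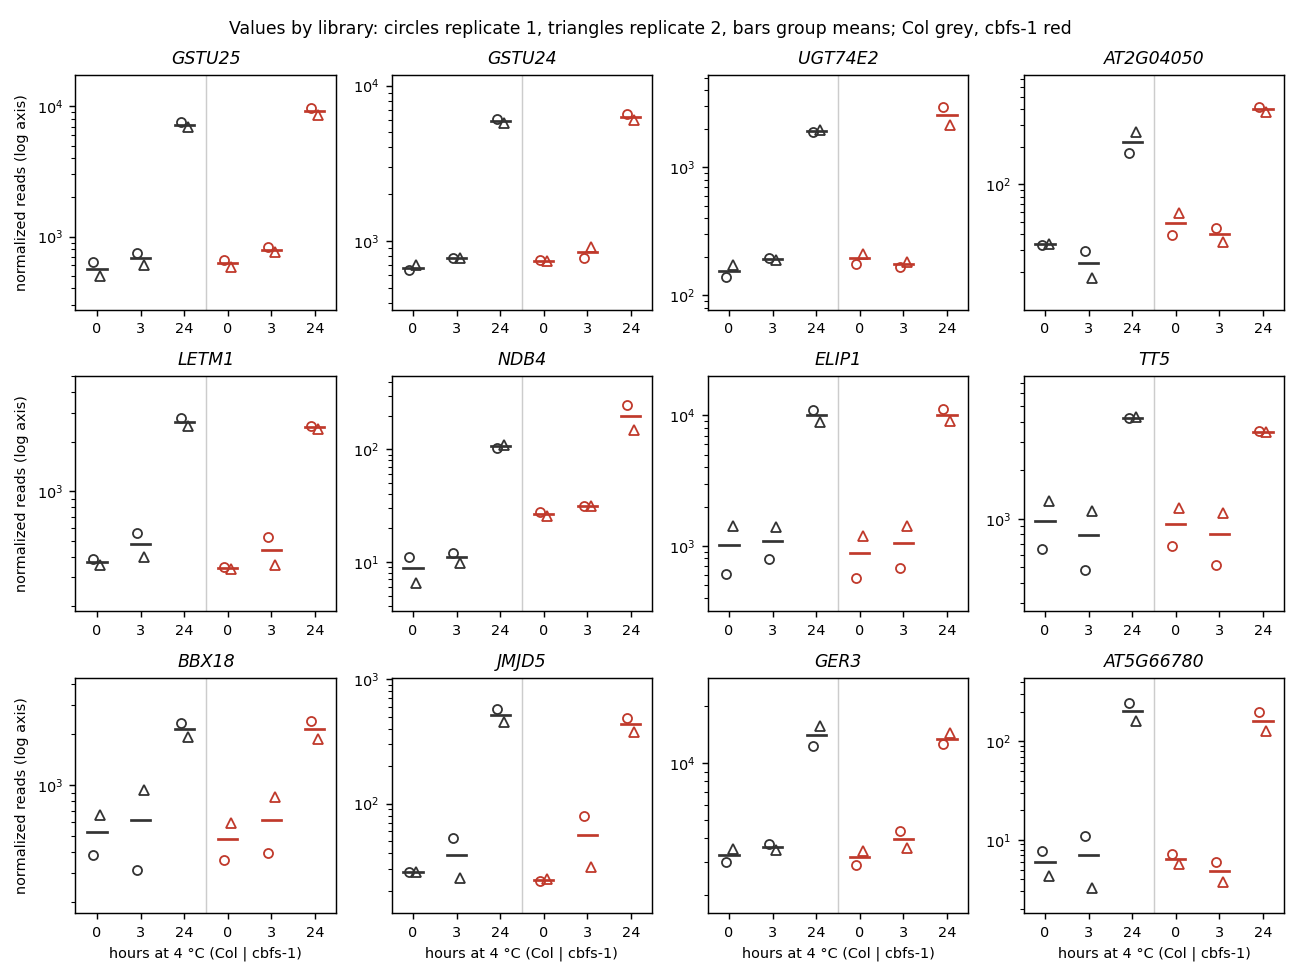
Normalized reads on a log axis for 12 of the 40 genes against hours at 4 °C, wild type in grey on the left and cbfs-1 in red on the right of each panel; circles are replicate 1, triangles replicate 2 and bars the means of 2 libraries. In wild type the means at 0 h and 3 h lie close together, which the rule set, and values at 24 h lie well above the earlier ones in each panel. In cbfs-1 replicate 1 of JMJD5 went from 23.8 at 0 h to 79.7 at 3 h. The triangles sit above the circles before 24 h in ELIP1, TT5 and BBX18.

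The late rise was not a trait of the whole tau family. The family was looked up after the names of the 40 were known, and 26 of its 27 genes in the table were tested. Of the 23 that are not among the 40, limma called 8 higher and 7 lower at 24 h in Col (Benjamini-Hochberg adjusted p under 0.05 over all tested genes), and 8 did not pass. The same counts, 8 and 7, were found in cbfs-1. Among all 20666 tested genes, 5305 (25.7%) were called higher and 5022 lower in Col, and 5140 higher and 4816 lower in cbfs-1. Calls in both directions were thus common, and the counts for this family and for the families and lists below are to be read beside these totals. GSTU26, next to GSTU25, fell from 296 to 226 in Col, a log2 change of -0.39 (SE 0.11, limma adjusted p = 0.0189). GSTU23, beside GSTU22, stood at 79.5 at 0 h and 82.1 at 24 h (log2 change 0.05, SE 0.17, limma adjusted p = 0.838). GSTU19, the most abundant tau gene, rose from 11178 to 16763 (0.58, SE 0.08, limma adjusted p = 3.64e-04). GSTU18 fell from 684 to 180 (-1.93, SE 0.14, limma adjusted p = 1.35e-05). GSTU11 and GSTU12 rose by 2.69 (SE 0.48) and 2.33 (SE 0.35) on the log2 scale, but their means of 48.0 and 72.0 at 24 h were under the level of 100, and they were not flat at 3 h, with log2 changes of 1.18 and 1.11. GSTU4 was close to the rule, with means of 94.7, 127 and 373 over the 3 times in Col and a ratio of 0.947, and missed it by its rise of 1.97. In the UGT73B family, the other 3 genes were called higher in Col at 24 h and 2 of them in cbfs-1, where UGT73B1 did not pass (log2 change 0.22, SE 0.17, limma adjusted p = 0.299). UGT73B3 stood in Col at 394 at 0 h and 1327 at 24 h (log2 change 1.74, SE 0.14).

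**Figure D3:**
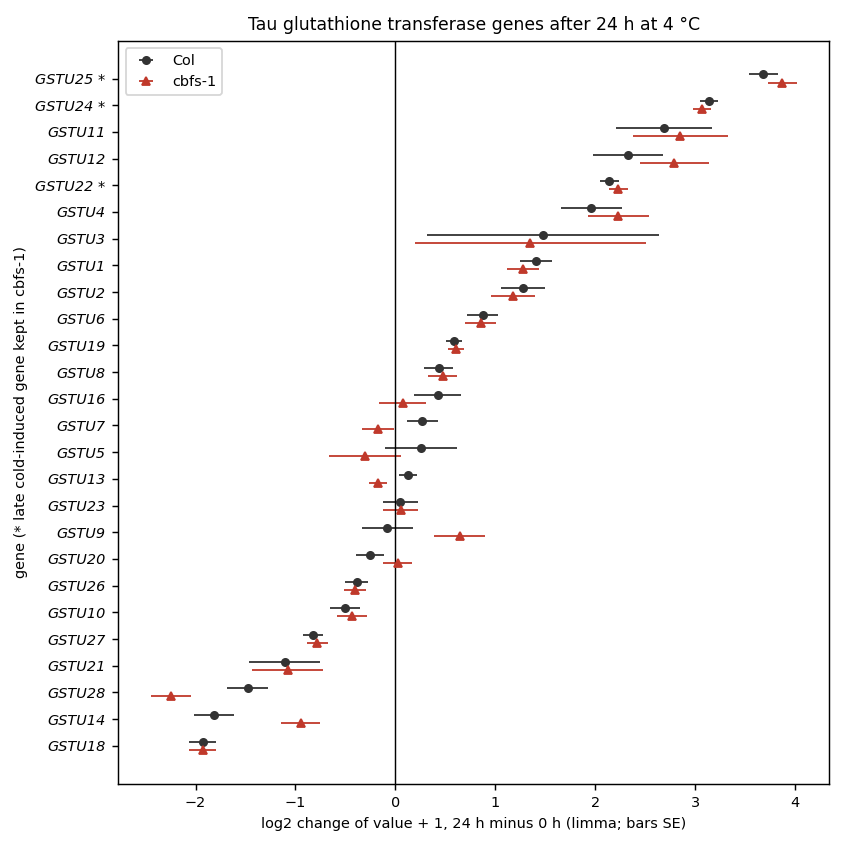
Log2 change of value + 1 from 0 h to 24 h for the 26 tested tau glutathione transferase genes, wild type as grey circles and cbfs-1 as red triangles, with bars for the SE from limma; asterisks mark the 3 late genes. GSTU25 and GSTU24 are at the top, at 3.68 and 3.14 in Col, and GSTU18 is at the bottom, at -1.93.

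The 6 transport genes encode 3 ATP-binding cassette proteins (ABCB11, ABCG16, ABCI19), 2 exporters of the MATE type (AT2G04050, AT4G38380), which move metabolites and toxic compounds out of the cytosol, and the glutamate receptor-like channel GLR1.3. AT2G04050 stood at 32.8 and 33.6, then 29.5 and 18.0, then 178 and 260.2 in Col, and at 39.3 and 59.6, then 45.3 and 34.9, then 419 and 379.6 in cbfs-1. Both mutant libraries were above both wild type libraries at 0 h, at 3 h and at 24 h. ABCB11 was nearly the same in the 4 early wild type libraries, 235 and 226 and 222 and 244, and 24 h gave 1006 and 1005. In cbfs-1 it was at 261 and 276, then 255 and 284, then 1446 and 1162, with both 24 h values above wild type. AT4G38380 was as steady before 24 h, at 115 and 120.4 and 113 and 119.5 in Col, then 534 and 527, and in cbfs-1 at 111 and 131, then 123 and 124, then 449 and 531. ABCI19 stood at 88.5 and 120.4, then 112 and 133, then 615 and 505 in Col and at 541 and 516 in cbfs-1 at 24 h, with overlapping genotypes. ABCG16 and GLR1.3 had the lowest levels per kilobase of exon in this group, with values of 288 and 171 and 205 and 155 in Col at 24 h.

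Of 43 tested genes annotated as MATE efflux proteins, 2 are among the 40, and of the other 41 limma called 14 higher and 13 lower in Col at 24 h, and 13 higher and 11 lower in cbfs-1. DTX1, the measured neighbour of AT2G04050, went from 55.0 at 0 h to 106 at 3 h and 616 at 24 h in Col (log2 change at 24 h 3.46, SE 0.28, limma adjusted p = 2.6e-05), so it was not flat at 3 h. Of the 50-base stretches of AT2G04050, 3.57% occur elsewhere among gene exons, most often in AT2G04070.

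Mitochondrial and redox genes numbered 3. NDB4, one of the alternative NAD(P)H dehydrogenases that bypass complex I, lay nearest to the level of 100 that the rule asks for. It stood at 10.9 and 6.51, then 12 and 9.82, then 103 and 110.1 in Col and at 27.9 and 25.6, then 31.5 and 31.1, then 250 and 149 in cbfs-1. The mutant libraries were above the wild type ones at each of the 3 times, with a ratio of means of 3.07 at 0 h and 1.87 at 24 h, the highest of the 40 at both times. LETM1, a gene for a LETM1-like protein of the inner mitochondrial membrane, stood at 389 and 356, then 558 and 402, then 2791 and 2502 in Col and at 349 and 336, then 531 and 356, then 2510.1 and 2409 in cbfs-1. Replicate 1 was above replicate 2 at 3 h in both genotypes. AT1G60750, annotated as an NAD(P)-linked oxidoreductase, stood at 25.1 and 39.1, then 24.1 and 28.6, then 133 and 150.1, and at 12.4 and 25.6, then 16.7 and 24, then 129 and 97.9.

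Among the alternative NAD(P)H dehydrogenase genes that are not in the group, NDB2 rose from 713 to 2539 in Col (log2 change 1.83, SE 0.16, limma adjusted p = 3.2e-05), and it fell short of the rise of 2. NDB1 stood at 575 and 560 (-0.04, SE 0.08, limma adjusted p = 0.721). Of the 7 measured genes of alternative respiration and mitochondrial stress, 4 were called higher and 1 lower in Col at 24 h, with the same counts in cbfs-1. AOX1A, the alternative oxidase gene, rose from 725 to 2446 in Col and from 735 to 2594 in cbfs-1 (log2 changes 1.74 and 1.79, SE 0.18, limma adjusted p = 8.23e-05 and 8.39e-05). BCS1, a gene for a mitochondrial AAA-type ATPase, was higher by 3 h already, at 132, 551 and 704 over the 3 times. The relatives of LETM1 moved little: LETM2 was higher by 0.27 (SE 0.08) on the log2 scale at 24 h and AT3G11560 was lower, going from 1967 to 1646 (-0.26, SE 0.08).

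Upstream windows of LETM1, ABCB11, AT2G18193 and AT2G04050 are shown because they hold the mitochondrial dysfunction motif, the element bound by NAC factors that are known to carry signals from impaired mitochondria to the nucleus. It was searched for after the names of the genes were seen. Each window is the 250 bases before the transcript start in the RefSeq annotation of TAIR10.1: chr3:22102225-22102474 on the minus strand for LETM1, chr1:523286-523535 on the plus strand for ABCB11, chr2:7919346-7919595 on the minus strand for AT2G18193 and chr2:1339469-1339718 on the minus strand for AT2G04050. The capitals mark the motif.
LETM1: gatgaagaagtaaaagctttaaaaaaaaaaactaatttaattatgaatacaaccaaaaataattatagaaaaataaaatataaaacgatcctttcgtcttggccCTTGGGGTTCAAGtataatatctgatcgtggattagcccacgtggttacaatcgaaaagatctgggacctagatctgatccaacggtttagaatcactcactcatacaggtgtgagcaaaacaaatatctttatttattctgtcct
ABCB11: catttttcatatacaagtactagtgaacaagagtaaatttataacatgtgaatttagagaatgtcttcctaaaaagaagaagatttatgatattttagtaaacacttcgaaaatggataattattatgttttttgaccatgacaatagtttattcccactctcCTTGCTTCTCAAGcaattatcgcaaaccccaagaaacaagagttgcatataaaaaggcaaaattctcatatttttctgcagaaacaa
AT2G18193: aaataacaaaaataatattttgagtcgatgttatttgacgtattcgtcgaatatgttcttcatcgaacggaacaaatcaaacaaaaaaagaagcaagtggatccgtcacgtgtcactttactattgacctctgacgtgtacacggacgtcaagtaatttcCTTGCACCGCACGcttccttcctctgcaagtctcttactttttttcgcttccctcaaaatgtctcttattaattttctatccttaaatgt
AT2G04050: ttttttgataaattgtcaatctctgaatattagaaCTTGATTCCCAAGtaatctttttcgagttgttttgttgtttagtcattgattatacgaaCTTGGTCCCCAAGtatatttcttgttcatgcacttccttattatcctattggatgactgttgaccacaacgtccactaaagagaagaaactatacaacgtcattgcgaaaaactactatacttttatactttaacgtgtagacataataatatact
The window of AT2G04050 holds 2 matches and the others 1. These 4 windows are 10% of the 40, against 1.20% of all promoter windows and 0 of the 22 late genes with a ratio under 0.7. In each of the 4 genes except LETM1 both cbfs-1 libraries at 24 h were above both wild type libraries. That held for 13 of the 40 genes (32.5%) and for 22.0% of all tested genes. The 24 h libraries entered the rule and the motif was searched for afterwards, so no link between motif and level is read from this. AT2G18193, which encodes an AAA-type ATPase, stood at 143 and 122, then 183 and 133, then 829 and 839 in Col and at 202 and 209, then 213 and 212, then 1334 and 928 in cbfs-1.

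Chloroplast and flavonoid genes held some of the most abundant transcripts. ELIP1 and ELIP2 encode early light-inducible proteins, which bind chlorophyll in thylakoids and protect them under excess light. ELIP1 stood at 610.5 and 1409, then 789.7 and 1392, then 11079 and 8889 in Col and at 567 and 1198, then 674 and 1414, then 11103 and 8987 in cbfs-1. ELIP2 stood at 383 and 983, then 408 and 1077, then 4769 and 4024 in Col and at 491 and 1081, then 439 and 1308, then 4932 and 4003 in cbfs-1. The genotypes overlapped at every time, and the ratio of means at 24 h was 1.01 for ELIP1 and 1.02 for ELIP2. At 0 h and 3 h replicate 2 was higher than replicate 1 in both genes and both genotypes, and at 24 h it was lower. Both are also in the list of 13 photoprotection genes; of the 11 others, limma called 2 higher (NPQ1, the violaxanthin de-epoxidase gene, and TAT7) and 6 lower in Col at 24 h, with the same counts in cbfs-1. OHP, a gene for a small relative of the same chlorophyll-binding protein family, fell from 1729 to 1268 (log2 change -0.45, SE 0.15, limma adjusted p = 0.0329).

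The upstream window of ELIP1 is shown for its G-box CACGTG, in capitals, the element bound by light-signalling factors such as HY5; it lies on the minus strand at chr3:8085670-8085919 of TAIR10.1.
ELIP1: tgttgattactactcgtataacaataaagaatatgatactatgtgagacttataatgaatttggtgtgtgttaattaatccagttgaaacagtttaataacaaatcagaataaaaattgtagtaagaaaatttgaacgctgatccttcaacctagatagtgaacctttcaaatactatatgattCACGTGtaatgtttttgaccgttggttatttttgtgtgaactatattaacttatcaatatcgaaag
A G-box was found in 4 of the 40 windows (10%) and in 6.49% of all promoter windows, and not in the window of ELIP2.

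TT5, the gene for chalcone isomerase in flavonoid synthesis, stood at 652 and 1295, then 480.2 and 1116, then 4219 and 4267 in Col and at 681 and 1175, then 514 and 1092, then 3524 and 3437 in cbfs-1. Both mutant libraries at 24 h were below both wild type ones, with a ratio of 0.820. Among the 12 other measured flavonoid genes, limma called 6 higher and 2 lower in Col at 24 h, and 7 higher and 0 lower in cbfs-1. TT4, the chalcone synthase gene one step ahead of TT5, rose from 8629 to 32349 in Col (log2 change 1.96, SE 0.46, limma adjusted p = 0.00636) and from 7637 to 27353 in cbfs-1 (1.89, SE 0.46, limma adjusted p = 0.00802). The anthocyanin genes DFR and LDOX fell in Col, from 415 to 127 (-1.70, SE 0.23, limma adjusted p = 3.44e-04) and from 463 to 179 (-1.37, SE 0.30, limma adjusted p = 0.00415). PWD, which encodes a dikinase that phosphorylates starch, stood at 842 and 849.6, then 1389 and 789, then 3905 and 3447 in Col and at 917 and 839.6, then 1269.7 and 756, then 3876 and 3549.8 in cbfs-1, with overlapping genotypes. SEX1, for the dikinase that acts before it on starch, was also late but fell under the ratio, at 11219 in Col and 6082 in cbfs-1 at 24 h. PES1, for a phytyl ester synthase of the chloroplast, stood at 296 and 306, then 305 and 259, then 1294 and 1289, and at 323 and 295, then 301 and 273, then 1087 and 1213.

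Regulators of light response and flowering were BBX18, a B-box protein gene of seedling light responses, CO, which promotes flowering in long days, and JMJD5, a Jumonji-domain gene tied to the circadian clock. JMJD5 stood at 28.4 and 28.2, then 52.5 and 25.4, then 571 and 451 in Col and at 23.8 and 24.6, then 79.7 and 31.1, then 489 and 379.6 in cbfs-1. At 3 h replicate 1 was well above 0 h in both genotypes and replicate 2 was near it, and the fold at 24 h was 18.1 in Col and 18 in cbfs-1. CO stood at 19.7 and 19.5, then 31.7 and 20.5, then 80.4 and 137 in Col and at 14.5 and 20.8, then 27.6 and 32.1, then 79.8 and 131 in cbfs-1; annotated exons of AT5G15845 overlap it, and it is not known here whether counting used the strand. BBX18 stood at 384 and 666, then 312 and 927, then 2356 and 1929.9, and at 360.0 and 592, then 393 and 850.5, then 2419.6 and 1868, with means at 24 h that differed by a ratio of 1.00. The time of day of each harvest is not given in the labels. None of the 14 clock genes in a list for comparison was among the 40: 6 of them met the level and the rise in Col, and all 6 were past a log2 change of 0.5 at 3 h.

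A replicate pattern ran through several of these genes. In ELIP1, ELIP2, TT5, BBX18 and AT4G27360, replicate 2 was more than 1.5 times replicate 1 in all 4 groups at 0 h and 3 h, and 0 of the 40 genes showed the reverse; among all tested genes the shares were 0.881% and 0.721%. At 24 h replicate 1 was the higher one in both genotypes in 21 genes and replicate 2 in 6. The shares among all tested genes were not worked out for these 24 h counts, and both 24 h groups entered the rule, so no pattern of the 40 is read from them. Across all tested genes, same-numbered libraries of the 2 genotypes at 24 h deviated together (r = 0.242). In AT4G27360, annotated as a dynein light chain, the early values were 21.8 and 67.3 and 14.2 and 89.2 in Col and 24.8 and 59.6 and 17.7 and 114 in cbfs-1, and those at 24 h were 331 and 277 and 442 and 229. For these 5 genes a flat mean from 0 h to 3 h stands on replicates that differ by more than the change itself.

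Stress and extracellular proteins gave the most abundant and the most strongly induced of the 40. GER3, a germin-like protein of the cell wall, stood at 2997 and 3518, then 3745 and 3458, then 12388 and 15742 in Col and at 2902 and 3442, then 4364 and 3563, then 12584 and 14359.7 in cbfs-1, with overlapping genotypes at each time. AT5G66780, annotated as a late embryogenesis abundant protein, of a kind made in seeds and dry cells, stood at 7.64 and 4.34, then 10.9 and 3.27, then 246 and 162 in Col and at 7.24 and 5.68, then 5.91 and 3.77, then 197 and 129 in cbfs-1. Its fold of 34.1 in Col was the largest of the 40, from early values close to the floor. PMZ, an AN1-type zinc finger protein gene, stood at 28.4 and 34.7, then 47.0 and 38.5, then 318 and 171, and at 44.5 and 39.8, then 38.4 and 47.1, then 396 and 168, with replicate 1 well above replicate 2 at 24 h in both genotypes. AT5G62210, annotated as an embryo-specific protein, stood at 370.2 and 558, then 339 and 527, then 1973 and 2412 in Col, and at 1689 and 2119 in cbfs-1 at 24 h. PP2-A8, a phloem lectin gene, stood at 146 and 155, then 191 and 196, then 699 and 650.1, and at 141 and 123, then 196 and 210.3, then 648 and 744.

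AT4G12490, for a lipid-transfer type protein, met the rule by its level and not by a strong rise in the mutant. It stood at 428 and 312, then 479 and 370.0, then 1572 and 1491 in Col and at 663 and 929, then 661 and 653, then 985 and 1790.3 in cbfs-1. Both mutant libraries lay above both wild type ones at 0 h and 3 h, the 24 h replicates of cbfs-1 spanned those of wild type, and the fold in cbfs-1 was 1.74 against 4.14 in Col. Of its 50-base stretches, 6.78% occur in exons of other genes, most often of AT4G12500, so part of its count is uncertain. Its close relatives AZI1 and EARLI1, which act in systemic defence and cold, were higher at 24 h in Col, by 3.25 (SE 0.33, limma adjusted p = 8.23e-05) and 1.95 (SE 0.26, limma adjusted p = 3.54e-04) on the log2 scale.

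The remaining 10 genes have no shared role. AT1G80130, a tetratricopeptide repeat protein gene, stood at 536 and 576, then 619 and 672, then 4956 and 2583 in Col and at 664 and 659.7, then 651 and 576, then 3808 and 2768 in cbfs-1. NAKR3, annotated as a copper chaperone, stood at 144 and 179, then 243 and 197, then 1328 and 1316, and at 145 and 154, then 334 and 212, then 1486 and 1348; its annotated exons overlap those of TRM19, and 13.3% of its 50-base stretches occur in exons of other genes, most often of that one. AT5G40590, which encodes a protein with cysteine- and histidine-rich C1 domains, stood at 221 and 330.4 in Col and 361 and 593 in cbfs-1 at 24 h, from 55.7 and 72.7 and 59.0 and 129 at 0 h. It had the third highest ratio of the 40. AT3G10530, a WD40 repeat protein gene, stood at 272 and 418, then 348 and 435, then 1415 and 1463 in Col and at 1513 and 1548 in cbfs-1 at 24 h. The homeodomain gene AT4G12750 stood at 170.4 and 171, then 247 and 225, then 875 and 799 in Col and at 829.9 and 768 in cbfs-1 at 24 h. AT3G13150, AT1G52700 and AT2G46495, annotated as a tetratricopeptide repeat protein, a hydrolase and a RING-type protein, had wild type means of 543, 225 and 114 at 24 h and ratios of 1.05, 1.26 and 1.21.

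The change from 0 h to 3 h in cbfs-1 is the only comparison over time whose libraries did not enter the rule. It is not wholly apart from the choice, since same-numbered libraries deviated together from their group means (r across genes of 0.486 between Col and cbfs-1 at 0 h and 0.565 at 3 h), and the Col libraries set the condition at 3 h. Among the 20666 tested genes limma called 8.85% in that comparison, 1329 higher and 499 lower. Of the 40 genes it called 2 (5.0%), PP2-A8 and NAKR3, both higher. That share is near the background. PP2-A8 was higher in both 3 h libraries than in both 0 h libraries, with a log2 change of 0.62 (SE 0.11, limma adjusted p = 0.00825). NAKR3 was likewise higher in both, with a log2 change of 0.83 (SE 0.20, limma adjusted p = 0.0309). At an unadjusted p under 0.05 there were 6 of the 40, all higher, and 22.2% of all tested genes; the further 4 were AT4G12750, JMJD5, GLR1.3 and GSTU25. JMJD5 had the largest estimate, 1.01 (SE 0.42, limma adjusted p = 0.188), with replicates that disagreed.

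With the replicate number as a block, limma called 14.8% of all tested genes and 4 of the 40 (10%), so the share among the 40 was again not above the background. The 4, all higher, were PP2-A8, NAKR3, AT4G12750 (log2 change 0.37, limma adjusted p = 0.0484) and GSTU25 (0.35, limma adjusted p = 0.0144). Without replicate 2 of cbfs-1 at 0 h none of the 40 was called, and NAKR3 was called without replicate 2 of cbfs-1 at 3 h but in no other fit that left out 1 of the 4 libraries. PP2-A8 also lost its call without replicate 2 of cbfs-1 at 3 h. The median log2 change of the 40 in cbfs-1 at 3 h was 0.09, against -0.02 for all tested genes, and 30 of the 40 intervals at 95% lay within -1 and 1. On the scale of the rule, 34 of the 40 (85.0%) stayed within 0.5 either way, as did 81.0% of all tested genes, so a flat start in the mutant is what most genes show. Above 0.5 were 5 genes and below -0.5 was 1, AT2G46495.

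**Figure D4:**
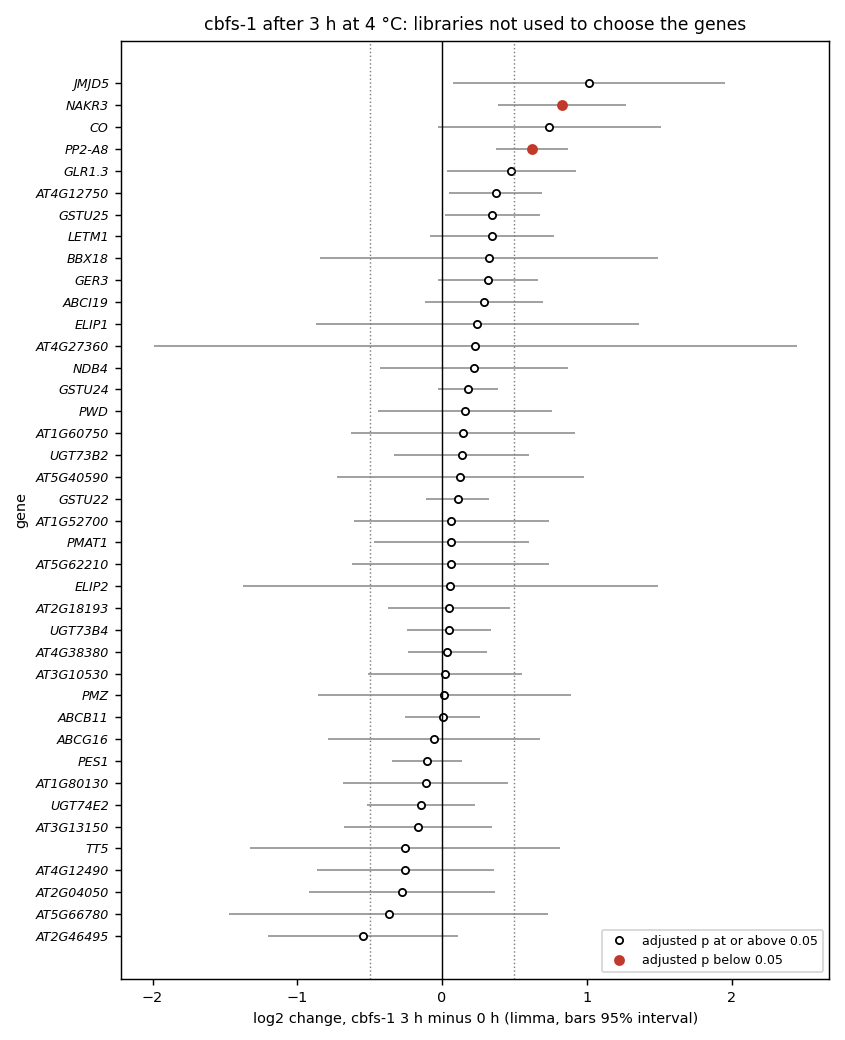
Log2 change from 0 h to 3 h in cbfs-1 for the 40 genes in order of size, with bars for the 95% interval from limma; filled red points have an adjusted p below 0.05, and dotted lines stand at -0.5 and 0.5. PP2-A8 and NAKR3 are the 2 filled points, and the widest intervals belong to AT4G27360 and ELIP2.

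At 24 h the ratio of the cbfs-1 mean to the wild type mean had a median of 1.01 and ran from 0.740 to 1.87; the lower end is set by the rule. It was above 1 in 22 genes and below 1 in 18. Both mutant libraries lay above both wild type libraries in 13 genes (32.5%) and below them in 3 (7.5%), against 22.0% and 21.3% of all tested genes; the rule leaves out genes with a ratio under 0.7, so the few below follow in part from the choice. Highest were NDB4 (1.87), AT2G04050 (1.82) and AT5G40590 (1.73), followed by AT2G18193, UGT74E2 and ABCB11 at 1.36, 1.32 and 1.30. All of these except AT5G40590 also had both mutant libraries above both wild type libraries at 0 h. That held at 0 h for 9 of the 40 genes (22.5%), and the reverse for 5 (12.5%), against 13.8% and 13.5% of all tested genes. Lowest were PMAT1, UGT73B2, AT5G66780, AT1G60750, TT5 and JMJD5, from 0.740 to 0.850. No test is given for these differences, as both 24 h groups and wild type at 0 h entered the rule. A low wild type value at 0 h makes the rise of 2 easier to reach, so nothing is read from the counts at 0 h.

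**Figure D5:**
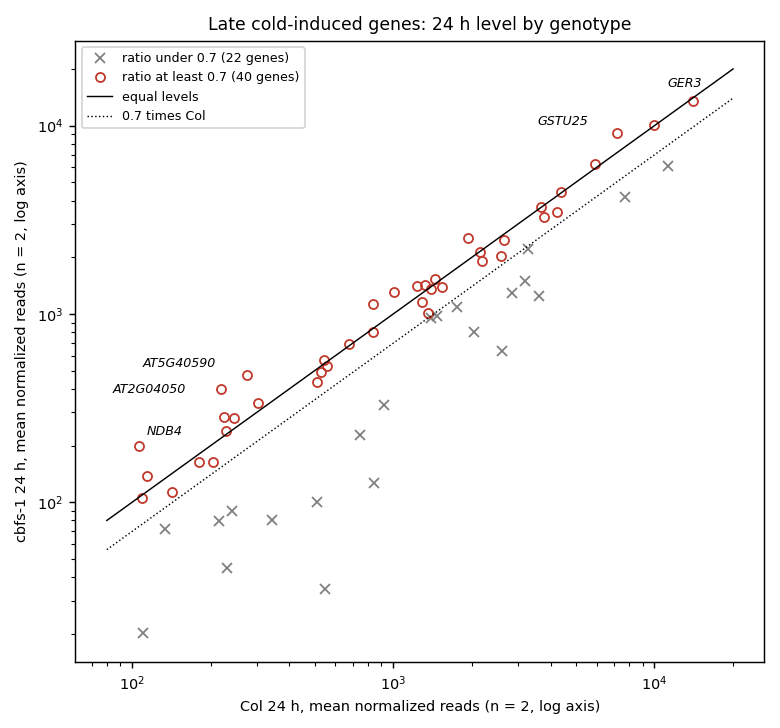
Mean normalized reads at 24 h in cbfs-1 against wild type, both on log axes with n = 2, for the 62 late genes; red circles are the 40 genes at a ratio of at least 0.7 and grey crosses the 22 below it, with lines for equal levels and for 0.7 times wild type. The circles lie along the line of equal levels over the whole range, and NDB4, AT2G04050 and AT5G40590 lie farthest above it.

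Several genes lay close to a threshold. NDB4 and CO were just above the level of 100, at means of 106 and 109, and ARI12 and AT2G21350, which met the other conditions, were below it at 71.9 and 67.4. GLR1.3 and UGT73B4 were just inside the rise of 2, both at 2.01, and LAC16 and AT2G43500 just outside at 1.99 and 1.97. At 3 h AT4G12750 and JMJD5 were inside at 0.46 and 0.45, and AT5G46600 and AT1G49310 outside, both at 0.51. On the other side AT2G04050 was inside at -0.47 and TT5 at -0.29, and AT1G73700, a MATE gene, outside at -0.91. For the ratio, PMAT1 and UGT73B2 were inside at 0.740 and 0.787, and BETA-VPE and ZIFL1 outside at 0.683 and 0.676.

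Lists of other cold pathways were set beside the 40. Of 14 CBF target genes, 13 met the level and the rise in Col, and 12 of them were not flat at 3 h. The late one, RAP2.1, stood at 510 in Col and 100.4 in cbfs-1 at 24 h. None was among the 40. The limits of the rule left these genes out, so this absence is not read as a result. COR15A, whose product guards chloroplasts in freezing, went from 357 at 0 h to 3385 at 3 h and 81402 at 24 h in Col, and stood at 3183 in cbfs-1 at 24 h. Of 15 starch and sugar genes, 5 met the level and the rise; 3 were not flat at 3 h, and SEX1 and SPS2F were late with ratios of 0.542 and 0.457. Genes of ribosome biogenesis and RNA helicases moved less: 9 of 11 were called higher in Col at 24 h, against 25.7% of all tested genes, and none met a rise of 2. The lists name 4 of the 40 genes in all, TT5, ELIP1, ELIP2 and AT4G12490. They hold 204 paired genes, marker lists included, out of 24616 genes in the table. A low count is therefore what lists of this size would give, and it is not read as a result.

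Promoter windows were compared by the share that holds each motif, on either strand, as a description of sequence. The DRE core CCGAC, the element bound by CBF proteins, was in 2 of the 40 windows (5.0%), those of PMZ and AT5G66780, in 10 of the 22 late genes with a ratio under 0.7 (45.5%), and in 12% of all promoter windows. The W-box core TTGAC, bound by WRKY factors, was in 26 of the 40 (65.0%), in 54.5% of the 22 and in 44.9% of all. It shares 4 bases with the as-1 core TGACG, and a single stretch can hold both. The ABRE core ACGTG, bound by abscisic acid response factors and part of the G-box, was in 12 windows (30.0%), against 22.9% of all. The evening element AAAATATCT was in the windows of PWD and AT4G38380 only (5.0%), against 2.36% of all, and the site II element TGGGC in 10 (25%), against 22.7%. The heat shock element GAANNTTC, the CAMTA motif CGCGT and the telo-box AAACCCTA were in 3, 2 and 2 windows (7.5%, 5.0% and 5.0%), against 9.55%, 6.87% and 4.49% of all. No window of JMJD5 or AT1G60750 held any of the 11 motifs. A match is a string of letters and not a bound site.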

How the data were processed

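RNA-seq libraries of whole seedlings were grouped by genotype and hours of cold, and numbered by replicate, as the titles give them. The deposited values are a signal, 1 per gene and library: as the values show, the authors divided read counts by 1 size factor per library, since 100% of them came out as whole reads within 0.001. The submitters' processing notes name HTSeq 0.6.0, TopHat2 2.1.0, DESeq2, Cufflinks 2.2.1 and TAIR10; their roles, the strand setting and the handling of shared reads are not given here, so overlapping and near-identical genes have uncertain counts. Values are comparable between libraries only as far as the size factors (0.914 to 1.22) hold.

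The 40 genes and all lists, families and motifs were chosen with earlier results of these data known. Genes were named by role, level, size of change, ratio and nearness to a threshold. limma 3.58.1 (R 4.3.3, eBayes with a trend) was fitted to log2(value + 1) for 20666 genes reaching 10 in 2 or more libraries, as 6 group means over 12 libraries with 6 residual degrees of freedom; all 40 genes passed. Benjamini-Hochberg adjustment covered all tested genes within a comparison, and a call is an adjusted p under 0.05. Fold changes on this scale understate the change of low genes. Libraries with the same number deviated together from their group means, with r of 0.334 to 0.565 across genes in the 6 pairs of groups at 0 h and 3 h, so the numbers were taken to pair those libraries, from the data and not from a label; pairs with a 24 h group gave 0.0428 to 0.242. edgeR 4.0.16 and DESeq2 1.42.0 on the recovered reads, other pseudocounts, filters and scalings, the replicate block and left-out libraries were alternatives. The fitting steps were tested on simulated data. Replicates differed by more than counting error in every group (chi-square per degree of freedom 6.21 to 24.1).

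Annotation and promoter sequence came from RefSeq on TAIR10.1. It held 24385 of the 24616 loci and gave a symbol other than the locus to 9929. The table has no coordinates, so genes were matched by locus. Of 214 listed genes 204 paired with their symbol in that annotation. Motifs were searched on both strands of 250 bases before the annotated start.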

Additional observations from a re-analysis of the deposited data

Results flagged for a closer look

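In AT1G80130, a tetratricopeptide repeat protein gene, the change of the means from 0 h to 3 h differed in sign between the 2 genotypes. In wild type both 3 h libraries (619 and 672) were above both 0 h libraries (536 and 576), and in cbfs-1 both 3 h libraries (651 and 576) were below both 0 h libraries (664 and 660). The log2 change of the means was 0.21 in wild type and -0.11 in cbfs-1. The difference between the genotypes was not tested. The limma estimate for cbfs-1 alone was smaller than its SE of 0.25 and did not pass the threshold (adjusted p = 0.843). The gene was singled out by this order of libraries, and the share of all tested genes with such an order was not worked out. With 2 libraries per group replicate spread alone can give such an order, so no difference between the genotypes is read from it.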

How the results depend on the processing

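In the 3 h comparison of cbfs-1, 1329 genes were called higher and 499 lower, and 2 of the 40 genes higher. The replicate block gave 2025, 1038 and 4; a block with a separate term for 24 h, chosen after seeing the data, gave 2751, 1947 and 6; the 4 compared libraries alone gave 759, 214 and 0. Leaving out 1 library gave 524 to 1002, 113 to 368 and 0 to 2. The rule itself found 22 genes at a ratio of at least 1 and 24 with a 3 h change within 0.25. Left-out libraries gave 28 to 52 genes, of which 26 to 39 were among the 40; the fewest came without replicate 2 of wild type at 3 h and the most without replicate 2 of wild type at 0 h. All counts at 24 h stayed within 1.5 times. Other pseudocounts, no filter, TMM scaling, edgeR and DESeq2 left the 3 h counts of all genes within 1.5 times and the count among the 40 at 2. Windows that reach 50 bases past the start held the DRE core in 4 of the 40 genes (10%), against 15% of all promoter windows. They held the evening element in 4 (10%), against 2.82%, and the ABRE core in 18 (45.0%), against 26.7%. The direction of the 3 h estimate was followed across settings for PP2-A8, NAKR3, AT4G12750 and GSTU25 only, and it was not reversed in any. Directions of the other genes were not checked. With 2 libraries per group, changes within the replicate spread were not detectable, and genes near the floor, such as AT5G66780 before 24 h, have imprecise folds.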
